A study of Oryza sativa Indica Group with 6 samples.

Results

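The net change in gene expression from the uninucleate microspore to the mature pollen grain of rice was measured as the difference between 2 arrays of tricellular pollen (TCP, titled Pollen at Pc) and 2 arrays of uninucleate microspores (UNM, titled Pollen at Pa). These 4 arrays were chosen by their titles from the 6 arrays of the study, and every one of the 57194 probe sets that are not controls was compared. The other 2 arrays hold bicellular pollen (BCP, titled Pollen at Pb), the stage that lies between them, and served for the estimate of spread and to place each net change in time. All samples were male gametophytes of the Indica rice variety Guichao No.2, grown in the field without any stated treatment and collected in summer at midday. Each stage had 2 biological replicates, and the labels do not say how many plants or anthers each holds or how the grains were freed from the anther. Total RNA was hybridised as biotin-labelled cRNA to Affymetrix rice arrays, and a value is the log2 signal of a probe set after robust multi-array averaging (RMA). A difference of 1 on this scale is therefore a doubling. In the rest of the text a difference is always TCP minus UNM in log2 units, given with its standard error (SE) from a linear fit to all 6 arrays with n = 2 arrays per stage.

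The microspore is the haploid product of meiosis, still alone in its wall inside the anther, where the tapetum feeds it and supplies the material of the outer wall. It then divides unequally into a large vegetative cell and a small generative cell, and in rice and other grasses the generative cell divides again within the grain to give the sperm cells before the anther opens. The mature grain is filled with starch and stored transcripts, and on the stigma it sends out a pollen tube whose tip growth depends on actin filaments, calcium gradients, Rop GTPases, ion fluxes and a wall that can be loosened and rebuilt.

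The replicates were close to each other and the stages far apart. Pearson's r over probe sets was 0.992 between the 2 UNM arrays and 0.985 between the 2 TCP arrays, against 0.661 to 0.669 between a UNM and a TCP array, and probe sets are not independent replicates. As a yardstick of background, the 95th percentile of the 64 probe sets that the array names as reporters was 5.11 in UNM and 5.78 in TCP. Probe sets above this level on their own array made up 38.6% and 42.3% of the table in UNM and 29.6% and 27.8% in TCP. Several controls moved with the stage. The mean hybridization control was 7.74 and 7.18 in UNM and 9.0 and 8.9 in TCP. The 25S ribosomal RNA probe set read 13.03 and 12.98 in UNM and 11.28 and 11.23 in TCP. The actin probe set at the 3' end exceeded that in the middle of the transcript by 3.06 and 3.15 in UNM and by 1.90 and 1.91 in TCP. The same difference for GAPDH went the other way, with 1.29 and 0.71 in UNM and 1.60 and 1.51 in TCP. Its middle probe set was below background on these arrays. The part of these shifts in the results below was not tested.

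Between microspore and mature pollen, 17130 of 57194 probe sets (30.0%) passed an adjusted p of 0.05 and a difference of at least 1 in limma with Benjamini-Hochberg adjustment. Of them 6903 (12.1%) rose and 10227 (17.9%) fell, so rises made up 40.3% of the changes. That split depended on how the arrays were scaled: the share of rises was 33.7% with arrays centred on their median, 60.7% with the 75th percentile, 48.4% after a further quantile normalization and 4.74% when the arrays were scaled by the hybridization controls. Relative to the deposited values these scalings moved the median difference by -0.13, 0.36, -0.09 and -1.49. On the deposited scale 2553 probe sets rose and 6274 fell by at least 2, and 1027 rose and 1898 fell by at least 4. At sizes of at least 6 the counts were 467 and 291, and at least 8 they were 148 and 14. These are measured sizes, and background was lower in UNM than in TCP (5.11 and 5.78), so they do not order rises against falls that started or ended at background.

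Much of the change was a passage across background. The signal lay below the reporters' 95th percentile on both UNM arrays and above it on both TCP arrays for 1516 probe sets, of which 1497 rose by the test. The opposite passage, from above background in the microspores to below it in mature pollen, was seen for 7321 probe sets, of which 5722 fell. That percentile was higher in TCP (5.78) than in UNM (5.11), so an unchanged signal between these levels also counts as the opposite passage. The counts of 1516 and 7321 are therefore not compared with each other. A further 12698 probe sets were above background on all 4 arrays, and these held 3101 rises and 3285 falls. Taking 1 probe set for each of 17905 annotated genes, the one with the highest mean over the 6 arrays, 9320 genes (52.1%) changed, 2575 (14.4%) rose and 6745 (37.7%) fell, with a median difference of -0.34 over all genes. Of these genes 2428 carry a gene name beyond a locus or clone number, and among them 1341 (55.2%) changed, 349 (14.4%) rose and 992 (40.9%) fell.

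**Figure D1:**
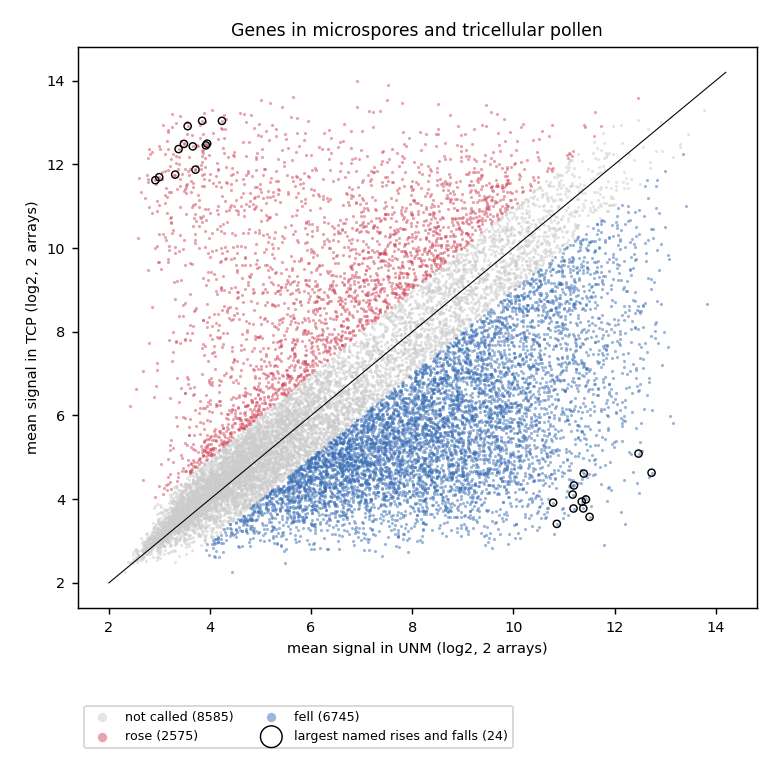
Mean log2 signal of 17905 genes in 2 UNM arrays (horizontal) and 2 TCP arrays (vertical), 1 probe set per gene, with 2575 genes that rose in red, 6745 that fell in blue and 8585 not called in grey. The line marks equal signal, and open circles mark the 12 largest named rises, near the upper left corner, and the 12 largest named falls, near the lower right.

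Markers of the tapetum, the inner wall of the anther, were strong in the samples labelled as uninucleate microspores and were near background in mature pollen. Of 12 measured anther wall markers, 10 fell and none rose, with a median difference of -3.59, and 10 of 12 were above background on each UNM array against 1 and 0 on the TCP arrays. The summed linear signal of the 12 was 6663 and 6858 in UNM, 887 and 813 in BCP and 279 and 271 in TCP. In BCP only 2 of the 12 were above background, GAMYB and MTR1 (means of 8.37 and 8.44), so the BCP sum does not describe the other members. C6, a tapetal lipid transfer protein, read 10.84 and 10.80 in UNM, 3.93 and 4.25 in BCP and 3.98 and 5.00 in TCP. C4, another lipid transfer protein of the anther, read 10.61 and 10.70 in UNM, 4.38 and 4.25 in BCP and 4.42 and 4.63 in TCP. The UNM arrays were far above the 4 later arrays for both, and BCP was already as low as TCP. C6 fell by 6.33 ± 0.31 and C4 fell by 6.13 ± 0.14.

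The other genes of this list that fell did so by smaller measured amounts. The cysteine protease CP1 fell by 5.23 ± 0.19, the aspartic protease AP25 fell by 5.01 ± 0.41 and CYP703A3, a fatty acid hydroxylase that makes monomers of the outer pollen wall, fell by 5.18 ± 0.13. AP25 had the widest spread in mature pollen, at 5.95 and 4.56 on the TCP arrays. Among the regulators, GAMYB, the gibberellin-responsive activator of tapetal genes, read 9.25 and 9.09 in UNM, 8.49 and 8.25 in BCP and 4.38 and 4.59 in TCP, so that most of its net difference of -4.69 ± 0.15 came after the bicellular stage. MTR1, a secreted protein of the anther, read 7.48 and 7.52 in UNM, 8.53 and 8.36 in BCP and 4.69 and 5.33 in TCP. It was higher in BCP than in UNM, short of the minimum difference of 1, and its net difference was -2.49 ± 0.21. Whether its signal came from the tapetum was not tested. TDR, a basic helix-loop-helix regulator of tapetal degeneration, fell by 1.96 ± 0.20, BHLH141, also named EAT1, fell by 1.77 ± 0.14 and BHLH142 fell by 2.14 ± 0.14. PTC1 (4.58 and 4.34 in UNM and 4.97 and 4.68 in TCP, adjusted p = 0.0888) and RAFTIN1 (4.30 and 4.21 in UNM and 4.05 and 4.42 in TCP, adjusted p = 0.918) were at background at both stages and did not pass. In such bulk samples, fewer cells of a type and less RNA per cell cannot be told apart, and the part of tapetal RNA in the other falls reported here was not tested. No annotated gene carried a name from the sperm and generative cell markers, so the sperm content of the grains was not checked.

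Genes of green tissue and of meiosis were mixed. Of 18 photosynthesis genes 4 fell, 2 rose and 12 did not pass, with a median difference of -0.19. Their summed linear signal was 3684 and 3927 in UNM and 1415 and 1478 in TCP. In UNM this sum was dominated by 1 gene, CAB2R, whose mean of 11.35 was the highest of the list, so the sum does not describe the other members. CAB2R, a chlorophyll a/b binding protein, read 11.29 and 11.41 in UNM, 4.59 and 4.51 in BCP and 3.87 and 4.01 in TCP and fell by 7.41 ± 0.13, while PETE, plastocyanin, fell by 1.46 ± 0.34, CHLH, a subunit of magnesium chelatase, fell by 1.39 ± 0.17 and LHCP fell by 1.12 ± 0.30, the last with an adjusted p of 0.0176. LHCP no longer passed without the second TCP array (-0.66) or the UNM array of replicate 1 (-0.89), and PETE without the latter (-1.34). The means of CHLH, 5.02 in UNM and 3.63 in TCP, were under the reporters' 95th percentile at both stages. Its probe set is shared, its other probe set did not pass and the median over them was -0.53. RBCS, the small subunit of Rubisco, rose from a mean of 8.35 to 9.36, and rca, Rubisco activase, from 4.87 to 5.96. Neither rise was stable: with arrays centred on their median they were 0.87 and 0.95 and did not pass, both were also lost without the UNM array of replicate 1 (0.87 each), RBCS without the TCP array of replicate 1 (0.97) and rca without the other (0.87), and scaling by the hybridization controls turned them to -0.49 and -0.41. The median over the probe sets of rca was -0.67 and that of RBCS 0.50. Of 13 meiosis genes 4 rose and 4 fell. MER3, a DNA helicase of crossover formation, read 3.54 and 3.67 in UNM, 6.45 and 6.67 in BCP and 6.52 and 6.80 in TCP and rose by 3.05 ± 0.16, although its other probe set did not pass. OsSPO11B rose by 2.21 ± 0.12 and SPO11-3 by 1.53 ± 0.18, both relatives of the nuclease that starts meiotic recombination, and DMC1, a recombinase, by 1.17 ± 0.24. The falls were those of KIN1, a kinesin needed for pollen fertility (-1.94 ± 0.15), MSH5 (-1.54 ± 0.24), ASY1 (-1.30 ± 0.17) and CRC1 (-1.15 ± 0.14), and each ended below background in TCP. The differences of HEI10 (0.87 ± 0.17), SDS (0.77 ± 0.19), PAIR1 (0.24 ± 0.13), SPO11-4 (-0.62 ± 0.17) and MEL1 (-0.83 ± 0.14) did not pass. These calls rest on the choice of scaling. With the hybridization controls 1 meiosis gene rose and 7 fell, DMC1 was -0.33, and SPO11-3 (0.035) and OsSPO11B (0.72) no longer passed. With the 75th percentile 6 rose and 2 fell, and ASY1 (-0.94) and CRC1 (-0.79) no longer passed. Without the second UNM array DMC1 was 0.77 and did not pass, while HEI10 then passed with 1.05, as did SDS with 1.02 without the TCP array of replicate 1.

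The 12 largest rises among named genes took a gene from background in the microspore to a strong signal in the mature grain. UNM means ran from 2.92 to 4.24 and TCP means from 11.6 to 13.0, with adjusted p-values of at most 1.36e-07. Since all 12 were under the reporters' 95th percentile in UNM, their true size has only a lower bound: against that percentile the rises were at least 6.51 to 7.93. These bounds give no firm order: NifU1, first by the measured difference, had a bound of 7.80, against 7.93 for CIPK5 and EXPB9. NifU1 (NCBI Gene 4351651), which encodes a NifU-type scaffold protein for iron-sulfur clusters, read 3.82 and 3.30 in UNM, 10.15 and 10.45 in BCP and 13.00 and 12.83 in TCP and rose by 9.35 ± 0.20. Its probe set is shared between transcripts and its other probe set did not pass.

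A group of 4 calcium-regulated protein kinases stood among these 12. CIPK5 (Gene 4327093), a kinase that is switched on by calcineurin B-like calcium sensors, read 4.01 and 3.68 in UNM, 8.52 and 8.32 in BCP and 13.10 and 12.98 in TCP and rose by 9.20 ± 0.16. CIPK30 (Gene 4325611), of the same family, read 3.62 and 3.35 in UNM, 8.29 and 8.13 in BCP and 12.40 and 12.58 in TCP and rose by 9.01 ± 0.15. Both climbed in similar steps through BCP. CPK2 (Gene 4327560), a kinase with its own calcium-binding domain, read 3.30 and 3.46 in UNM, 10.47 and 10.38 in BCP and 12.35 and 12.38 in TCP and rose by 8.99 ± 0.13. CPK22 (Gene 4347564), of the same type, read 3.91 and 3.41 in UNM, 9.09 and 9.13 in BCP and 12.49 and 12.37 in TCP and rose by 8.77 ± 0.18. For all 4 kinases the BCP arrays lay between the other stages without overlap.

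Wall-loosening proteins were a further 3 of the 12. EXPB9 (Gene 4349301), a beta-expansin, read 4.56 and 3.91 in UNM, 12.87 and 12.92 in BCP and 13.13 and 12.95 in TCP and rose by 8.80 ± 0.22. EXPB10 (Gene 4331325), of the same family, whose pollen members are known as group 1 grass pollen allergens, read 3.93 and 3.50 in UNM, 11.29 and 11.31 in BCP and 11.94 and 11.81 in TCP and rose by 8.16 ± 0.17. Both beta-expansins had reached nearly their full level in BCP. The alpha-expansin EXPA32 (Gene 4346331) read 2.98 and 3.01 in UNM, 7.94 and 8.01 in BCP and 11.76 and 11.63 in TCP and rose by 8.70 ± 0.12, with BCP midway.

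The remaining 4 differed in when they rose. ADF-9 (Gene 4343240), an actin-depolymerizing factor that severs and recycles actin filaments, read 4.17 and 3.71 in UNM, 12.09 and 12.17 in BCP and 12.47 and 12.52 in TCP and rose by 8.55 ± 0.17, almost all of it by BCP. FBA2 (Gene 107277365), fructose-bisphosphate aldolase of glycolysis, read 4.02 and 3.82 in UNM, 10.16 and 10.13 in BCP and 12.45 and 12.45 in TCP and rose by 8.54 ± 0.13. In contrast SPPL3 (Gene 4324348), a signal peptide peptidase-like membrane protease, read 3.38 and 3.24 in UNM, 3.77 and 4.07 in BCP and 11.77 and 11.74 in TCP and rose by 8.44 ± 0.15, with BCP still at the level of the microspores. OsTrx20 (Gene 4339117), a thioredoxin, read 2.90 and 2.94 in UNM, 5.10 and 5.67 in BCP and 11.66 and 11.59 in TCP and rose by 8.70 ± 0.19, most of it after BCP, and its other probe set did not pass.

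**Figure D2:**
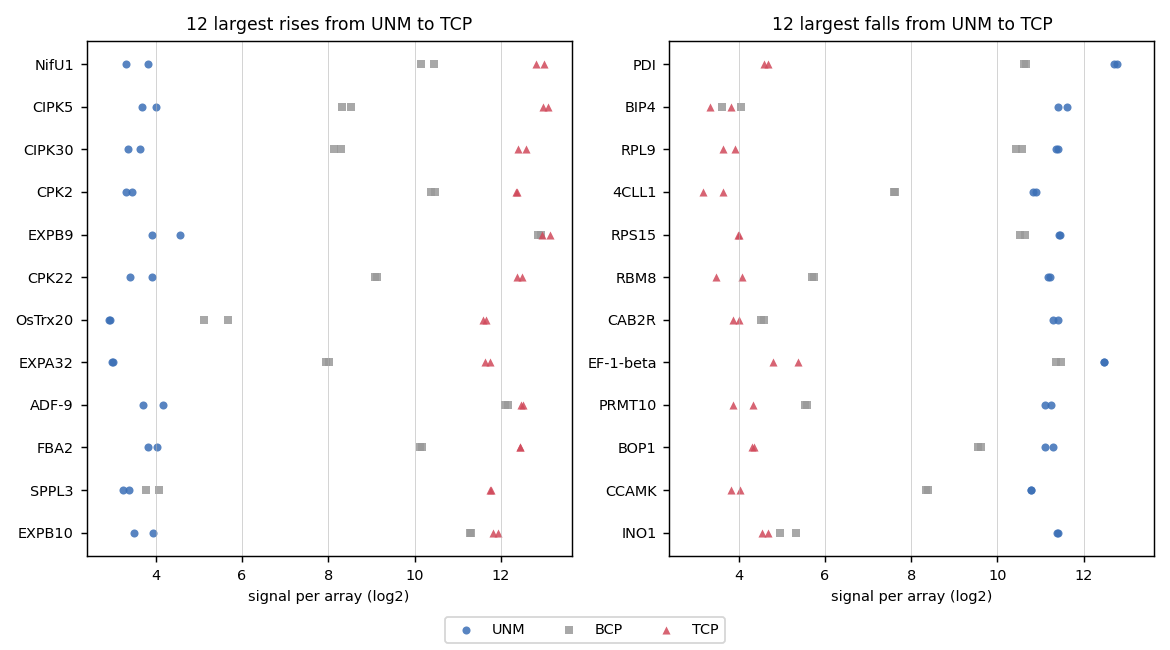
Log2 signal on each array for the 12 largest named rises (left) and the 12 largest named falls (right) from UNM to TCP, 2 arrays per stage, with circles for UNM, squares for BCP and triangles for TCP. UNM and TCP points are separated for all 24 genes, while the BCP squares lie near UNM for some genes (SPPL3, RPL9) and near TCP for others (EXPB9, BIP4).

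The 12 largest falls among named genes went from a strong signal in UNM to background in TCP, and the part of tapetal RNA in that signal was not tested. UNM means ran from 10.8 to 12.7 and TCP means from 3.41 to 5.09, with adjusted p-values of at most 2.02e-07, and against the reporters' 95th percentile in TCP the falls were at least 5.01 to 6.95. Protein folding in the endoplasmic reticulum and protein synthesis gave 5 of the 12. PDI (Gene 4350002), protein disulfide isomerase, which forms disulfide bonds in secreted proteins, read 12.70 and 12.77 in UNM, 10.66 and 10.62 in BCP and 4.68 and 4.59 in TCP and fell by 8.10 ± 0.12. BIP4 (Gene 4338866), an Hsp70 chaperone of the endoplasmic reticulum, read 11.61 and 11.41 in UNM, 4.05 and 3.62 in BCP and 3.33 and 3.82 in TCP and fell by 7.93 ± 0.22. PDI fell mainly after BCP, BIP4 before it.

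Transcripts for 3 proteins of translation fell late. RPL9 (Gene 4347422), a protein of the large ribosomal subunit, read 11.36 and 11.41 in UNM, 10.43 and 10.58 in BCP and 3.64 and 3.92 in TCP and fell by 7.60 ± 0.14. RPS15 (Gene 4342580), of the small subunit, read 11.44 and 11.43 in UNM, 10.53 and 10.63 in BCP and 4.01 and 3.98 in TCP and fell by 7.44 ± 0.12. EF-1-beta (Gene 4344188), the nucleotide exchange factor of elongation factor 1, read 12.47 and 12.48 in UNM, 11.36 and 11.47 in BCP and 4.80 and 5.38 in TCP and fell by 7.38 ± 0.20. In all 3 BCP was close to the microspores and far above TCP.

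The other 7 were of mixed function. RBM8 (Gene 4334528), which encodes a Y14-type protein of the exon junction complex, read 11.17 and 11.21 in UNM, 5.70 and 5.75 in BCP and 4.08 and 3.47 in TCP and fell by 7.41 ± 0.20. PRMT10 (Gene 4340089), a protein arginine methyltransferase, read 11.10 and 11.24 in UNM, 5.57 and 5.54 in BCP and 4.34 and 3.88 in TCP and fell by 7.06 ± 0.17. INO1 (Gene 4331917), inositol-3-phosphate synthase, which makes the precursor of inositol and phytate, read 11.38 and 11.40 in UNM, 4.95 and 5.34 in BCP and 4.54 and 4.68 in TCP and fell by 6.78 ± 0.16. For these 3 most of the fall was present in BCP. 4CLL1 (Gene 4331650), a 4-coumarate-CoA ligase-like protein, read 10.89 and 10.83 in UNM, 7.62 and 7.60 in BCP and 3.64 and 3.18 in TCP and fell by 7.45 ± 0.17. BOP1 (Gene 4343071) read 11.10 and 11.30 in UNM, 9.55 and 9.62 in BCP and 4.35 and 4.31 in TCP and fell by 6.87 ± 0.13. BOP1 kept more of its microspore level in BCP than 4CLL1 did. CCAMK (Gene 4339160), a calcium- and calmodulin-dependent kinase known for root symbiosis, read 10.78 and 10.79 in UNM, 8.40 and 8.33 in BCP and 3.81 and 4.02 in TCP and fell by 6.87 ± 0.13. The second probe set of CCAMK did not pass. CAB2R (Gene 4324599), described above, completes the 12.

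The named genes were also sorted into 41 lists by function, described here by how many of their measured members rose and fell, against 14.4% of all genes that rose and 37.7% that fell. Where 5 or fewer members of a list passed in 1 direction, those that the naming rule had not picked are given as well and were chosen after their values were seen. List medians within 0.36 of 0 from below turn positive when arrays are centred on the 75th percentile, and scaling by the hybridization controls lowers every difference by 1.49, so small medians carry no direction. List counts move with it: for falls, from 16 to 44 homeobox genes, 9 to 22 expansins and 4 to 14 photosynthesis genes. Of the 182 genes picked by the rule that passed, DMC1 was the one that changed sign under any of the 4 scalings. The 29 further members were less stable: scaling by the hybridization controls ended 19 of their calls and turned 10 of them below 0, and 11 calls were lost under another alternative, leaving aside a minimum difference of 2.

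**Figure D3:**
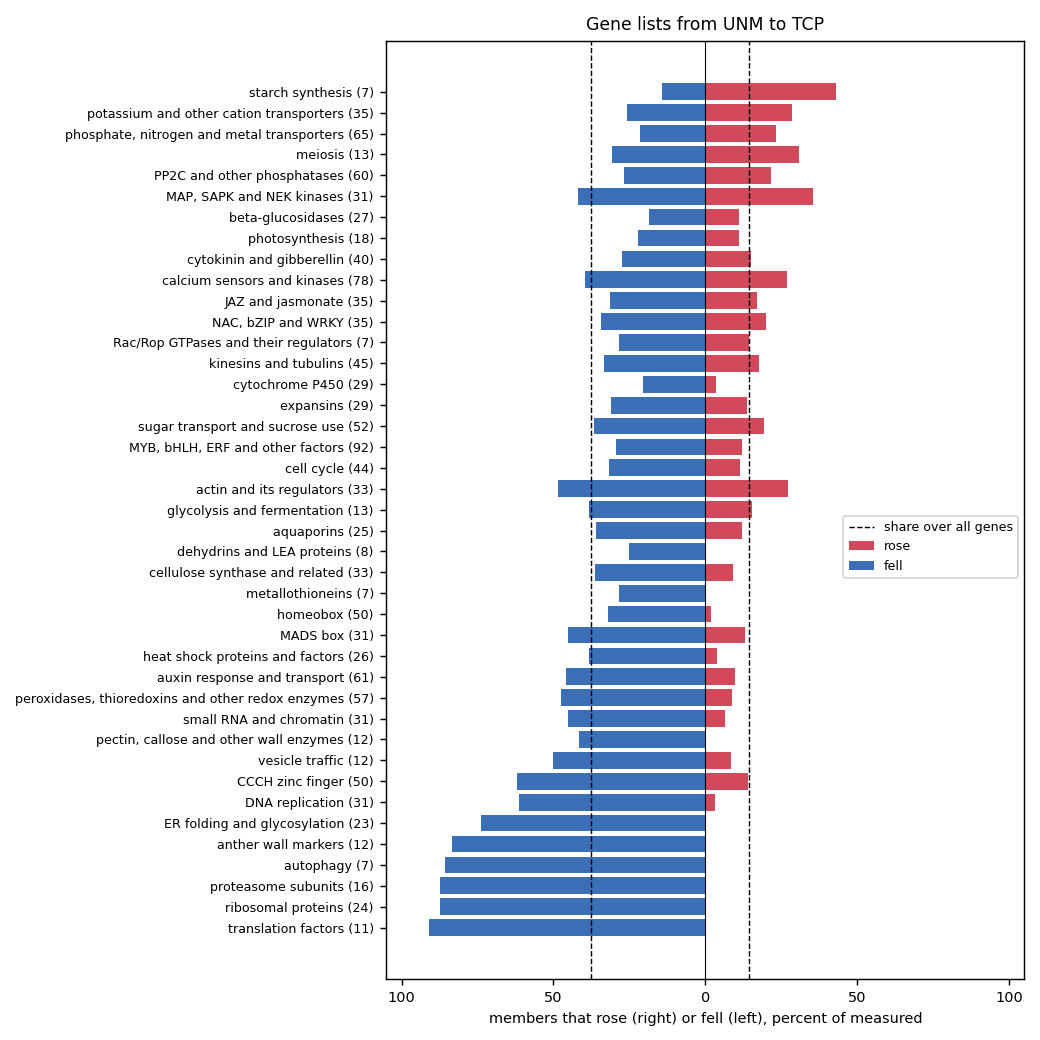
Percent of the measured members of each gene list that rose (red, right) or fell (blue, left) from UNM to TCP, with the number of measured members in brackets. Dashed lines mark the shares over all 17905 genes, 14.4% for rises and 37.7% for falls; translation factors, ribosomal proteins, proteasome subunits, autophagy genes and anther wall markers lie farthest to the left, with no rise.

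Among genes for wall loosening and wall building a few members rose steeply. Of 29 expansins 4 rose (13.8%) and 9 fell (31.0%), beside 14.4% and 37.7% of all genes. The rises were the 3 described above and EXPA26, which read 4.57 and 4.67 in UNM and 11.23 and 11.22 in TCP and rose by 6.60 ± 0.14. They ranged from 6.60 to 8.80, and the next highest expansin, EXPB6, differed by 0.83 and did not pass. Among 33 genes of the cellulose synthase group there were 3 rises (9.09%) and 12 falls (36.4%). CSLD5, of a cellulose synthase-like group needed for tip-growing cells, read 2.99 and 2.98 in UNM, 4.49 and 4.69 in BCP and 10.33 and 10.33 in TCP, and CSLC9, of a group linked to the xyloglucan backbone, read 6.06 and 5.92 in UNM, 7.26 and 6.90 in BCP and 12.23 and 12.23 in TCP. Both rose mostly after BCP, with net rises of 7.35 ± 0.13 and 6.24 ± 0.16, and CESA3, a cellulose synthase subunit, rose by 1.55 ± 0.12. CESA6, another cellulose synthase subunit, fell by 4.23 ± 0.16 and CSLC7 fell by 3.44 ± 0.14.

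Of 12 genes for pectin, callose, arabinogalactan and other wall enzymes none rose and 5 fell. AGP1 read 12.08 and 12.20 in UNM, 6.46 and 6.39 in BCP and 5.76 and 5.90 in TCP and fell by 6.31 ± 0.13. GLU2 and GLU1, endoglucanases that cut cellulose-like glucans, fell, with differences of -4.34 ± 0.14 and -3.91 ± 0.23, XTH8, a xyloglucan endotransglucosylase, fell by 3.74 ± 0.24 and GLU8 fell by 1.28 ± 0.21. GLU2 was the one of these with BCP still near the microspore level, at 8.75 and 8.77.

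The actin cytoskeleton changed members. Of 33 genes for actin and its regulators 9 rose (27.3%) and 16 fell (48.5%). Besides ADF-9, the rises were led by ADF-1, which read 6.53 and 6.19 in UNM, 12.43 and 12.84 in BCP and 12.98 and 12.68 in TCP, and ADF-6, which read 6.88 and 6.69 in UNM, 12.36 and 12.36 in BCP and 12.75 and 12.84 in TCP. VLN4, a villin that bundles filaments and is regulated by calcium, read 6.66 and 6.62 in UNM, 12.44 and 12.48 in BCP and 12.64 and 12.49 in TCP. All 3 were at their mature level in BCP already, and rose by 6.47 ± 0.20, 6.01 ± 0.13 and 5.93 ± 0.12 overall. ADF-4 gave the largest fall of the list, from a mean of 9.86 to 5.17.

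Of 45 kinesins and tubulins 8 rose (17.8%) and 15 fell (33.3%), beside 14.4% and 37.7% of all genes. KIN7J, a kinesin motor, read 6.63 and 6.42 in UNM, 5.63 and 5.82 in BCP and 12.46 and 12.39 in TCP. Its BCP mean differed from UNM by -0.80, short of the minimum difference of 1, and it then rose, 5.90 ± 0.14 over the whole interval. TUB8, a beta-tubulin, rose from a mean of 6.57 to 10.66, whereas the beta-tubulins TUB1 and TUB2 fell, with differences of -3.87 ± 0.13 and -3.74 ± 0.20. The other probe set of TUB1 did not pass, and the median over its probe sets was -1.74.

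Signalling lists held many members that rose, beside others that fell. Of 78 calcium sensors and kinases 21 rose (26.9%) and 31 fell (39.7%). Of 31 MAP kinases, stress-activated SAPK kinases and NEK kinases 11 rose and 13 fell. MPK17, a mitogen-activated protein kinase, read 5.23 and 4.58 in UNM, 11.79 and 11.90 in BCP and 12.22 and 12.15 in TCP and rose by 7.28 ± 0.21, nearly all by BCP. MPK16 and MPK10, of the same family, rose by 4.18 ± 0.12 and 4.62 ± 0.17. NEK3, of a kinase family known from microtubule and mitotic control, read 4.26 and 3.99 in UNM, 3.82 and 4.13 in BCP and 11.51 and 11.46 in TCP. It was at background in both earlier stages and rose by 7.36 ± 0.16.

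Of 60 protein phosphatase genes, most of the PP2C family that counters such kinases, 13 rose and 16 fell. OsPP2C59 read 5.24 and 5.45 in UNM, 11.04 and 10.98 in BCP and 12.16 and 12.07 in TCP and rose by 6.77 ± 0.13, and OsPP2C15 rose by 5.60 ± 0.12, both with over 50% of the rise present in BCP. OsPP2C78 read 5.83 and 5.60 in UNM, 4.94 and 4.49 in BCP and 10.94 and 10.90 in TCP, a rise of 5.20 ± 0.18 that followed a dip. OsPP2C40 fell by 4.61 ± 0.18. Of 7 Rac/Rop GTPases, switches of polar growth, RAC6 rose, RAC5 and RAC3 fell and 4 did not pass. RAC6 read 9.37 and 8.97 in UNM, 13.18 and 13.12 in BCP and 12.53 and 12.47 in TCP, highest at BCP, and its net rise was 3.33 ± 0.16. RAC5 fell by 2.00 ± 0.16 and RAC3 fell by 1.53 ± 0.16, both to background.

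Transporters included some of the steepest late rises. Of 52 genes for sugar transport and sucrose use 10 rose (19.2%) and 19 fell (36.5%), beside 14.4% and 37.7% of all genes. SWEET5, a sugar efflux carrier, read 4.87 and 5.04 in UNM, 6.64 and 6.21 in BCP and 12.77 and 12.64 in TCP and rose by 7.75 ± 0.17, mostly after BCP. MST5, a monosaccharide uptake transporter, read 3.85 and 3.55 in UNM, 10.14 and 10.73 in BCP and 10.26 and 10.43 in TCP and rose by 6.65 ± 0.22, all of it by BCP. SUT5, a sucrose transporter, fell by 5.67 ± 0.16 and TPP1, a trehalose-6-phosphate phosphatase, fell by 5.59 ± 0.14.

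Of 65 transporters for phosphate, nitrogen and metals 15 rose (23.1%) and 14 fell (21.5%). With the hybridization controls the counts were 7 and 42, and with the 75th percentile 19 and 11. YSL7 and YSL4, of the yellow stripe-like family that moves metal chelates, read 5.07 and 4.88 in UNM, 11.12 and 11.07 in BCP and 12.99 and 12.92 in TCP and 2.97 and 2.95 in UNM, 11.89 and 11.90 in BCP and 10.04 and 10.04 in TCP. YSL7 climbed throughout while YSL4 was highest at BCP, and the net rises were 7.98 ± 0.13 and 7.08 ± 0.12. COPT2, a copper transporter, read 4.90 and 4.59 in UNM, 6.83 and 6.66 in BCP and 11.81 and 11.86 in TCP and rose by 7.09 ± 0.15. PHT1-7, a phosphate transporter, read 10.38 and 10.24 in UNM, 10.20 and 10.33 in BCP and 3.53 and 3.55 in TCP, with no loss at BCP and a net difference of -6.77 ± 0.13. Its other probe set did not pass.

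Of 35 potassium and other cation transporters 10 rose (28.6%) and 9 fell (25.7%), against 6 and 24 with the hybridization controls. HAK20, of the potassium uptake family, read 3.76 and 3.83 in UNM, 3.76 and 4.13 in BCP and 10.74 and 10.76 in TCP and rose by 6.96 ± 0.16 after BCP. HAK3, of the same family, peaked at BCP, with 9.48 and 9.42, and rose by 4.43 ± 0.20 net. CAX2, a vacuolar cation/proton exchanger, rose by 4.58 ± 0.13, and ACA7, a calcium pump, fell by 4.19 ± 0.24. Of 25 aquaporins, channels for water and small solutes, 3 rose and 9 fell. SIP2-1, a small intracellular aquaporin, read 6.18 and 5.93 in UNM, 3.86 and 4.26 in BCP and 11.34 and 11.43 in TCP, a rise of 5.33 ± 0.17 after a dip at BCP, and the tonoplast aquaporins TIP2-2 and TIP1-2 rose by 2.53 ± 0.14 and 2.25 ± 0.15. The plasma membrane aquaporins PIP2-6, PIP1-2 and PIP2-1 fell, with differences of -6.40 ± 0.28, -5.79 ± 0.16 and -5.13 ± 0.20. The 2 further probe sets of PIP2-1 disagreed, with 1 fall and 1 rise.

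The starch genes that rose were already high at the bicellular stage. Of 7 measured, 3 rose and 1 fell, against 2 and 4 with the hybridization controls. GBSS-I, the granule-bound synthase of amylose, read 3.44 and 3.61 in UNM, 12.22 and 12.23 in BCP and 11.35 and 11.29 in TCP and rose by 7.80 ± 0.13. AGPS2, a small subunit of ADP-glucose pyrophosphorylase, which makes the glucose donor for starch, read 5.72 and 5.64 in UNM, 11.39 and 11.45 in BCP and 8.57 and 8.53 in TCP, so that its net rise of 2.87 ± 0.12 was less than the rise to BCP. SBE, a branching enzyme, rose by 2.48 ± 0.12, and did not pass with that scaling (0.99). Of its 7 further probe sets 4 rose and 1 fell. SSII-1, a soluble starch synthase, fell by 1.45 ± 0.20 to background.

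Glycolysis and fermentation, with 13 measured genes, gave 2 rises (15.4%) and 5 falls (38.5%), close to the 14.4% and 37.7% of all genes. Against the rise of FBA2, the aldolases FBA3 and FBA1 fell, with differences of -3.21 ± 0.15 and -2.71 ± 0.13, PDC2, pyruvate decarboxylase, fell by 3.14 ± 0.12, GAPC, glyceraldehyde-3-phosphate dehydrogenase, fell by 2.19 ± 0.13 and Adh2, alcohol dehydrogenase, fell by 1.28 ± 0.35. Adh2 did not pass without either UNM array or the TCP array of replicate 1, at -1.34 to -0.67. ALDP, an aldolase, read 4.79 and 6.49 on the TCP arrays, a rise of 1.56 ± 0.48 that did not hold. In the fit to the 4 UNM and TCP arrays its limma adjusted p was 0.057, it was 0.71 without the TCP array of replicate 2, the call was lost without any 1 of the UNM or BCP arrays, and it was 0.064 with the hybridization controls. Of 27 beta-glucosidases 3 rose and 5 fell. BGLU38 read 3.29 and 3.18 in UNM, 12.26 and 12.91 in BCP and 10.69 and 10.57 in TCP, with its peak at BCP, and rose by 7.40 ± 0.21. BGLU36 and BGLU25 rose by 4.26 ± 0.15 and 3.68 ± 0.12. BGLU22 fell by 4.47 ± 0.13, and BGLU8, BGLU7, BGLU26 and BGLU31 fell, with differences between -3.36 and -2.18, all to background.

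No gene rose in the lists for making, folding and degrading proteins. They held 24 ribosomal proteins, 11 translation factors, 16 proteasome subunits, 23 genes of folding and glycosylation in the endoplasmic reticulum and 7 autophagy genes, of which 21, 10, 14, 17 and 6 fell. Median differences were -3.96, -2.74, -2.40, -2.57 and -2.70, beside -0.34 over all genes. Under the 4 other scalings between 21 and 23 ribosomal proteins, 8 and 11 translation factors, 13 and 16 proteasome subunits, 16 and 22 folding genes and 6 and 7 autophagy genes fell, and 1 rise appeared, in the folding list, with the 75th percentile scaling.

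Among ribosomal proteins, RPL5A read 11.90 and 11.82 in UNM, 11.74 and 11.79 in BCP and 5.60 and 5.78 in TCP and RPL3 read 12.36 and 12.50 in UNM, 11.66 and 11.69 in BCP and 7.04 and 6.73 in TCP. Both kept most of their microspore level in BCP and then fell, with net differences of -6.17 ± 0.13 and -5.55 ± 0.15. RPL39C (-0.99), rpl5 (-0.78) and RPL27 (0.63) did not pass. Of the translation factors, EF-4 fell by 4.55 ± 0.23, TIF3K1, a subunit of initiation factor 3, fell by 4.19 ± 0.12 and REFA1, elongation factor 1-alpha, fell by 3.66 ± 0.12. REFA1 is 1 of several near-identical copies on a shared probe set, so its signal cannot be given to a single gene.

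Most folding genes that fell did so after BCP. RPN-II, ribophorin II of the oligosaccharyltransferase, read 11.57 and 11.41 in UNM, 11.46 and 11.56 in BCP and 4.83 and 5.04 in TCP. CRO1, calreticulin, a calcium-binding chaperone of glycoproteins, read 11.92 and 11.88 in UNM, 12.45 and 12.51 in BCP and 6.42 and 6.63 in TCP, higher in BCP than in the microspores. The net differences were -6.56 ± 0.14 and -5.38 ± 0.13. BIP4 was an exception, since its fall was complete by BCP.

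The proteasome subunits named by the rule kept a measurable signal. PAE1 and PAF1, alpha subunits of the core particle, fell from means of 12.11 and 10.80 to 7.96 and 6.82, and RPN7 and OsRPN11, subunits of the regulatory lid, from 11.77 and 10.80 to 7.91 and 7.65. All 4 remained above the reporters' 95th percentile in TCP. Of the autophagy genes, APG8C, a ubiquitin-like protein of the autophagosome, read 12.15 and 12.04 in UNM, 10.00 and 10.11 in BCP and 9.47 and 9.32 in TCP. APG8D, APG5 and APG4A fell, with differences of -3.12 ± 0.34, -3.04 ± 0.21 and -3.01 ± 0.15, and APG12 did not pass. Of 12 genes of vesicle traffic 6 fell and 1 rose: the secretory carrier proteins SCAMP6, SCAMP5, SCAMP3 and SCAMP2 fell, with differences of -4.35 ± 0.12, -3.98 ± 0.20, -3.90 ± 0.18 and -3.77 ± 0.32, and SEC18, a fusion ATPase, rose by 1.13 ± 0.16, or by 0.96 without the second UNM array, which did not pass.

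Of 26 heat shock proteins and factors 10 fell and 1 rose. HSP81-3, a cytosolic Hsp90, read 13.92 and 13.74 in UNM, 13.27 and 13.28 in BCP and 8.54 and 8.80 in TCP and fell by 5.16 ± 0.14, and HSP81-2 fell by 4.78 ± 0.13. Both were still well above background in TCP. CLPB-M, a disaggregating chaperone, and HSF1, a heat shock factor, fell, with differences of -4.10 ± 0.16 and -3.82 ± 0.14. HSF4 rose by 1.18 ± 0.13, with its other 2 probe sets not passing and a median over all its probe sets of 0.26.

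Most DNA replication genes fell. Of 31 measured, 19 fell and 1 rose, with a median of -1.71. PCNA, the sliding clamp of DNA polymerase, read 9.83 and 9.66 in UNM, 6.63 and 6.63 in BCP and 3.77 and 3.75 in TCP. RFC4, a subunit of the clamp loader, read 8.95 and 8.86 in UNM, 6.68 and 6.76 in BCP and 3.85 and 3.82 in TCP. Both fell in similar steps, with net differences of -5.99 ± 0.13 and -5.07 ± 0.12. RFC5, of the same complex, fell by 3.70 ± 0.19 and FEN1A, the flap endonuclease of lagging strands, fell by 4.80 ± 0.31, though the other probe set of FEN1A rose. ORC3, an origin recognition subunit, rose by 1.01 ± 0.31, from below to about background, and this call did not hold. It was lost in the fit to the 4 UNM and TCP arrays (limma adjusted p = 0.055), with arrays centred on their median (0.87) and without the TCP array of replicate 2 (0.48), as without either UNM or either BCP array, and with the hybridization controls it was -0.48.

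Of 44 cell cycle genes 5 rose (11.4%) and 14 fell (31.8%), beside 14.4% and 37.7% of all genes. CYCD5-2, a D-type cyclin, read 6.11 and 5.98 in UNM, 7.95 and 7.67 in BCP and 11.28 and 11.25 in TCP and rose by 5.22 ± 0.14. CDKF-4 rose by 3.96 ± 0.13, CYCL1-1 by 1.82 ± 0.12, CycC1;1 by 1.61 ± 0.15 and CDKF-3 by 1.47 ± 0.13. CYCP3-1, a P-type cyclin, fell by 5.21 ± 0.14, EL2, an inhibitor of cyclin-dependent kinases, fell by 4.60 ± 0.17 and CDC2-1, a cyclin-dependent kinase, fell by 4.50 ± 0.12. The other probe sets of CYCD5-2, EL2 and CDC2-1 did not pass.

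Of 31 genes for small RNAs and chromatin 2 rose and 14 fell. DCL4, a Dicer-like nuclease, read 9.03 and 8.92 in UNM, 5.35 and 5.60 in BCP and 3.30 and 3.33 in TCP and fell by 5.66 ± 0.14. EZ1, a histone H3 lysine methyltransferase of the Polycomb type, read 10.68 and 10.74 in UNM, 9.80 and 9.73 in BCP and 5.34 and 5.17 in TCP and fell by 5.45 ± 0.13, and AGO4B, an Argonaute protein, fell by 4.32 ± 0.23. JMJ705, a histone demethylase, rose by 3.92 ± 0.13 and AGO1A by 1.15 ± 0.12.

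Of 61 auxin genes 6 rose (9.84%) and 28 fell (45.9%), beside 14.4% and 37.7% of all genes. ARF13 and ARF22, auxin response factors, fell, with differences of -5.26 ± 0.20 and -4.19 ± 0.17, and OsGH3-2, which conjugates auxin to amino acids, read 5.44 and 4.76 in UNM, 4.85 and 5.01 in BCP and 11.05 and 11.13 in TCP and rose by 5.99 ± 0.22 after BCP. Of 40 cytokinin and gibberellin genes 6 rose and 11 fell. CPS1, the entry enzyme of gibberellin synthesis, read 7.59 and 7.63 in UNM, 12.51 and 12.67 in BCP and 12.40 and 12.33 in TCP and rose by 4.76 ± 0.13, and LOGL7, of a family that activates cytokinins, by 4.99 ± 0.13. RR6 and RR41, cytokinin response regulators, fell, with differences of -3.68 ± 0.29 and -2.70 ± 0.13. Outside this list CYP88A5, of the cytochrome P450 family that makes gibberellin precursors, read 4.14 and 4.15 in UNM, 11.76 and 11.63 in BCP and 10.87 and 10.94 in TCP and rose by 6.76 ± 0.12, the 1 rise beside 6 falls among 29 P450 genes. CYP707A6, of the family that degrades abscisic acid, fell by 3.38 ± 0.14.

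Of 35 jasmonate genes 6 rose (17.1%) and 11 fell (31.4%), close to the 14.4% and 37.7% of all genes. The repressors JAZ13 and TIFY10B fell, with differences of -6.09 ± 0.15 and -4.81 ± 0.14, each to background by BCP, and the synthesis enzymes LOX5 and AOS1 fell, with differences of -4.24 ± 0.18 and -2.65 ± 0.23. JAR1, which joins jasmonate to isoleucine to make the active hormone, read 4.55 and 4.53 in UNM, 8.55 and 8.19 in BCP and 9.53 and 9.42 in TCP and rose by 4.94 ± 0.15.

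The transcription factor lists differed in their share of rises. Of 50 CCCH zinc finger genes, many of which bind RNA, 7 rose and 31 fell, with a median of -1.32. OsC3H11 read 11.64 and 11.74 in UNM, 9.88 and 9.95 in BCP and 5.70 and 5.60 in TCP and fell by 6.04 ± 0.12, and OsC3H65, OsC3H20 and OsC3H10 fell, with differences of -5.26 ± 0.14, -4.26 ± 0.12 and -4.25 ± 0.12. Of 50 homeobox genes 25 were under the reporters' 95th percentile at both stages and 33 did not pass. The 1 rise (2.0%, beside 14.4% of all genes) was that of OSH43 (2.13 ± 0.13). The 16 falls included those of HOX4 (-4.10 ± 0.16), HOX12 (-3.13 ± 0.13), Roc5 (-2.84 ± 0.19) and Hox16 (-4.96 ± 0.29). The 2 other probe sets of Hox16 did not pass, and the median over its probe sets was 0.17.

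Of 31 MADS box genes 4 rose and 14 fell. MADS27 read 3.32 and 3.27 in UNM, 3.41 and 3.41 in BCP and 9.23 and 9.15 in TCP and rose by 5.89 ± 0.12 after BCP, and MADS14, MADS4 and MADS20 rose by 2.23 ± 0.19, 1.73 ± 0.19 and 1.11 ± 0.18, the last not passing without the UNM or the TCP array of replicate 1 (0.94 and 0.93). The other probe set of MADS27 did not pass. The floral organ factor MADS1 fell by 3.16 ± 0.24, MADS55 fell by 2.88 ± 0.15 and mads47 fell by 2.92 ± 0.17. Of 35 NAC, bZIP and WRKY factors 7 rose and 12 fell. BZIP02 read 5.52 and 5.15 in UNM, 4.06 and 4.21 in BCP and 11.42 and 11.41 in TCP and rose by 6.08 ± 0.16, RF2b rose by 3.46 ± 0.14, and OsbZIP03 and TRAB1, an abscisic acid-responsive factor, fell, with differences of -4.08 ± 0.13 and -3.39 ± 0.12. Of 92 MYB, bHLH, ERF and other factors 11 rose and 27 fell. Beside GAMYB, the largest measured falls were those of YAB1 (-5.88 ± 0.18), PCF1 (-4.42 ± 0.18) and DOF4 (-4.12 ± 0.15). The median over the probe sets of YAB1 was -2.82, and the other probe sets of YAB1 and PCF1 did not pass.

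Redox and stress proteins held rises and falls. Of 57 peroxidases, thioredoxins and other redox enzymes 5 rose (8.77%) and 27 fell (47.4%), beside 14.4% and 37.7% of all genes. Besides OsTrx20, the rises were GST-II, a glutathione transferase (2.58 ± 0.14), the ascorbate peroxidases APX8 (1.81 ± 0.18) and APX2 (1.41 ± 0.12, with 0.69 as the median over its probe sets), and OsTrx25 (1.20 ± 0.16). PRX74, a class III peroxidase, read 8.79 and 8.76 in UNM, 3.20 and 3.22 in BCP and 3.12 and 3.41 in TCP and fell by 5.51 ± 0.14, GRXS9, a glutaredoxin, fell by 4.27 ± 0.12 and OsTrx26 fell by 4.13 ± 0.25. Of 7 metallothioneins, small metal-binding proteins, 2 fell, MT2C (12.54 and 12.74 in UNM, 6.23 and 6.27 in BCP and 6.39 and 6.60 in TCP) and MT1A (-1.18 ± 0.25), the latter not passing without the TCP array of replicate 1 (-0.84). Of 8 dehydrins and related proteins 2 fell: rab25 fell by 2.90 ± 0.19 and LIP9, which read 10.68 and 10.40 in UNM, 6.67 and 6.67 in BCP and 8.52 and 8.04 in TCP, fell by 2.26 ± 0.19. LIP9 depended on its probe set, since 1 of its 2 others rose and the median over all its probe sets was 0.96.

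The bicellular stage divided the net change into an earlier and a later part. Of the 2575 genes that rose, 1598 (62.1%) had reached at least 50% of the net rise in BCP and 977 had not, and BCP lay above TCP for 664 and below UNM for 277. Of the 6745 genes that fell, 3269 (48.5%) had lost at least 50% by BCP and 3476 had not. These shares use the same UNM and TCP means as the net change and are a description without a test. By the calls of the separate steps, 1152 of the rises passed from UNM to BCP alone, 630 from BCP to TCP alone and 502 in both. Of the falls 2583 passed in the earlier step alone, 2521 in the later alone and 1276 in both. A net difference also hides excursions: of the 8585 genes not called, 793 rose to BCP and fell again and 195 did the reverse.

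The lists differed in where BCP lay. Of the 21 ribosomal proteins that fell, none had lost 50% by BCP, and the median share was 12.02%. The corresponding counts were 1 of 10 translation factors (14.7%), 2 of 17 folding genes (-10.9%, since most were higher in BCP than in UNM) and 3 of 14 proteasome subunits (33.9%), but 5 of 6 autophagy genes (82.3%). DNA replication stood between, with 9 of 19 (47.5%). At the other end were the anther wall markers, with 8 of 10 and a median of 103%, auxin genes with 24 of 28 (96.3%), homeobox genes with 14 of 16 (107%), MADS box genes with 12 of 14 (106%) and all 9 falling expansins (111%).

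Rises divided in the same way. Of the 9 actin genes that rose 8 had reached 50% by BCP, with a median of 95.7%, as had 12 of 13 phosphatases (77.7%), 8 of 10 potassium and other cation transporters (124%) and all 3 starch genes (112%). Of the 15 phosphate, nitrogen and metal transporters that rose 6 had (20.5%), of the 6 auxin genes 1 had (23.3%) and of the 5 cell cycle genes none (27.6%). Named genes at the late extreme were SPPL3, NEK3, HAK20, MADS27, OsGH3-2, KIN7J, BZIP02, SIP2-1 and OsPP2C78, in which BCP held between -37.4% and 7.24% of the net rise.

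**Figure D4:**
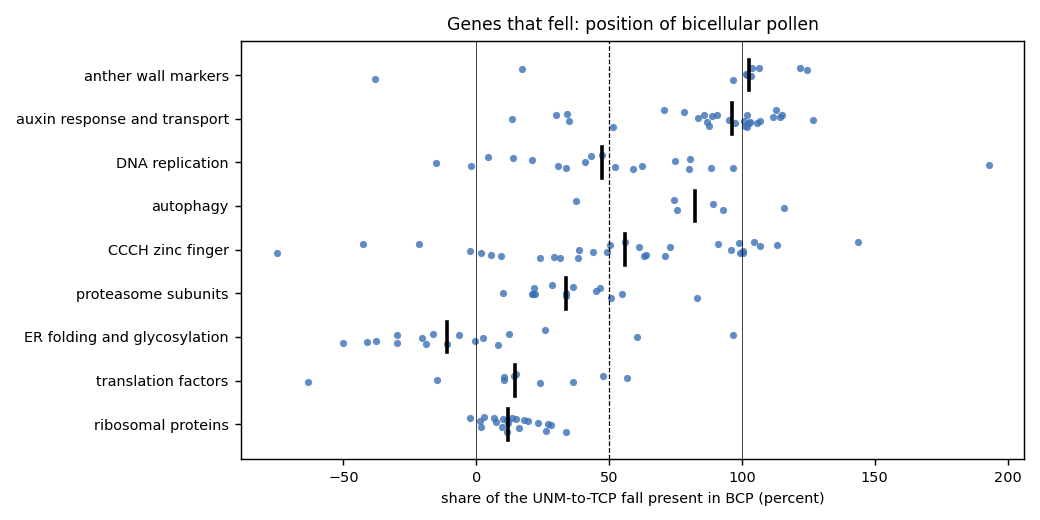
Share of the fall from UNM to TCP already present in BCP, in percent, for genes that fell in 9 lists; each point is a gene and black bars are list medians. Values near 0 mean that BCP was at the UNM level and values near 100 that it was at the TCP level: all 21 ribosomal proteins lie under 50%, and most anther wall markers and auxin genes near 100%.

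In some gene families members moved in opposite directions. Of 350 name families with at least 2 measured genes, 106 held both a rise and a fall, 37 only rises, 164 only falls and 43 neither. Among all named genes 14.4% rose and 40.9% fell, so a family with many members can hold both directions at these shares alone. The 8 families described here were picked for the widest span between their extreme members. In the CPK family, 6 of 20 rose and 9 fell, and CPK13 read 9.95 and 9.93 in UNM, 6.05 and 5.96 in BCP and 4.11 and 3.70 in TCP against the rise of CPK2. In the CIPK family 5 of 24 rose and 10 fell, with CIPK14 at -4.14 ± 0.15 against CIPK5. Among 23 CML genes, calmodulin-like calcium sensors, 6 rose and 8 fell: CML28 read 4.01 and 3.55 in UNM and 11.12 and 11.17 in TCP, and CML31 read 7.75 and 7.67 in UNM and 3.10 and 3.13 in TCP.

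The same held for transport and wall families. Of 12 SWEET genes SWEET5 was the 1 that rose, and 5 fell. SWEET11 read 9.25 and 9.37 in UNM, 3.59 and 3.63 in BCP and 3.54 and 3.92 in TCP, the reverse order of SWEET5. Of 15 YSL genes 6 rose and 3 fell, with YSL6 at -5.37 ± 0.14 against YSL7 at 7.98 ± 0.13. Of 11 EXPB genes 2 rose and 3 fell, and EXPB4 read 9.03 and 9.35 in UNM, 4.25 and 4.13 in BCP and 3.89 and 4.32 in TCP. Of 9 ADF genes 3 rose and 4 fell, and of 11 TRX genes 2 rose and 4 fell.

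**Figure D5:**
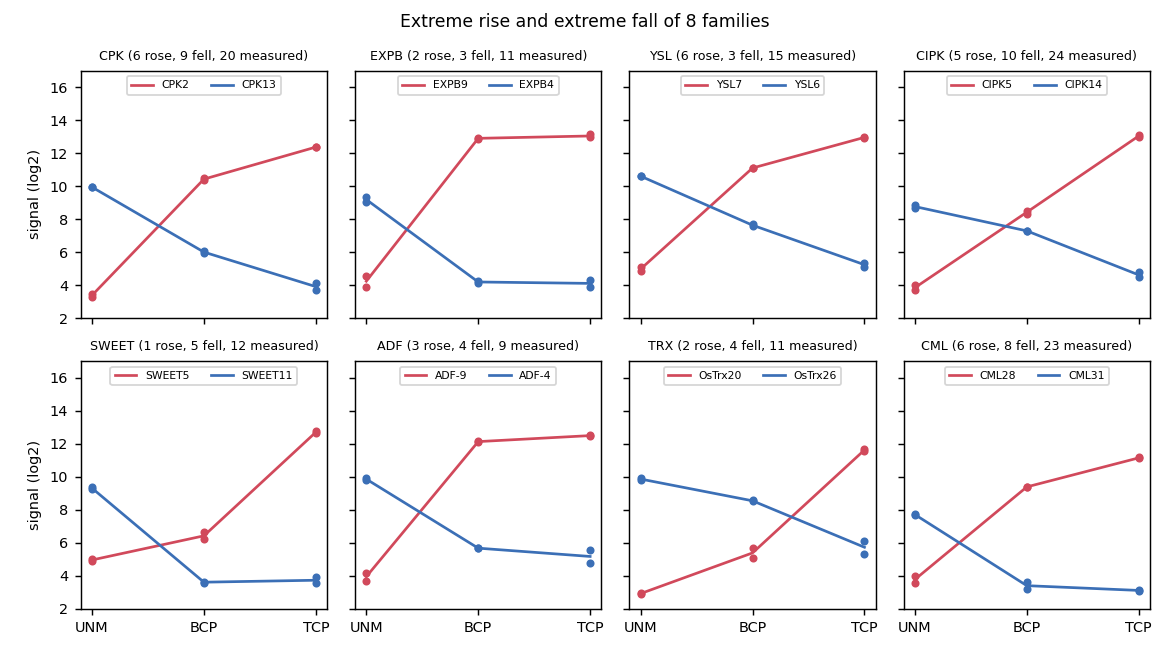
Log2 signal on each array (points) and stage means (lines) in UNM, BCP and TCP for the member with the largest rise (red) and the one with the largest fall (blue) of the 8 families with the widest span. In each panel the red line ends above its own UNM level and the blue line below its own, and the counts in the titles give the family members that rose, fell and were measured.

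Not every gene rests on independent probe sets. Of the 182 named genes that passed, 38 are read by probe sets shared between transcripts, and 128 had their lower stage under the reporters' 95th percentile, which leaves a lower bound for 122. For the other 6, BHLH142, CHLH, KIN1, RR41, MT1A and CRC1 even the microspore mean lay below that percentile in TCP, so their falls have no lower bound. Of 35 with further probe sets, all of these passed in the same direction for 10, none did for 19, and at least 1 passed in the opposite direction for 4, which were SBE, PIP2-1, FEN1A and LIP9. With the median over a gene's probe sets, 11 of the named genes that passed were classed as weaker and 2, LIP9 and Hox16, turned. The weaker ones, beside TUB1 and YAB1, were OsTrx20 (4.31), LOGL7 (2.76), MER3 (1.54), EL2 (-2.32), OsC3H65 (-2.55), CPK13 (-2.92), PHT1-7 (-3.24), CCAMK (-3.60) and CHLH (-0.53). No p-value is given for these medians, and of their sizes only that of CHLH is below the minimum difference of 1. Over all 1792 genes called with further probe sets, none of these passed likewise for 1064.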

How the data were processed

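The authors deposited 1 table of log2 values for 57381 probe sets on 6 arrays, made by RMA per the submitters' processing notes. Neither the RMA version nor whether the 6 arrays were processed jointly is given in the sources used here. The 187 control and reporter probe sets were left out of the tests. Stage was fitted as a factor to all 6 arrays with limma 3.58.1 (R 4.3.3), and p-values were adjusted by Benjamini-Hochberg over 57194 probe sets. A change was called at an adjusted p under 0.05 and a difference of at least 1. The fit had 3 residual and 3.87 prior degrees of freedom, and the median SE was 0.16. The fit was tested on simulated data. The number of arrays limits the precision, and p-values measure only the spread between these samples.

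Genes came from the platform annotation, with names from RefSeq symbols and synonyms: 22436 probe sets had 1 gene, 95 several and 34663 none. Wrong name matches were removed from the lists by name. The rule for named genes took the 12 largest rises and falls with separated arrays, up to 4 passing members of each list with the largest differences, all anther wall and meiosis genes, and the extremes of the 8 families with the widest span. Members and lists were chosen with earlier results of these data known, and no set test was run. Promoter and protein sequences were not used here.

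Replicate numbers did not pair the samples: deviations of same-numbered arrays correlated at -0.05 for UNM and BCP, -0.07 for UNM and TCP and 0.01 for BCP and TCP.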

Additional observations from a re-analysis of the deposited data

How the results depend on the processing

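Scaling mattered most. Centring on the 75th percentile gave 13305 probe sets that rose. Scaling by the hybridization controls gave 41661 changed probe sets (1976 rose, 39685 fell) and 14874 changed genes (1180 rose, 13694 fell), and turned DMC1 to -0.33, PTC1 to -1.13 and PAIR1 to -1.26. With no minimum difference 30981 probe sets changed and 17658 rose, and 4269 genes rose. With a minimum of 2 the counts were 8827 changed probe sets (2553 rose, 6274 fell) and 5787 changed genes (1472 rose, 4315 fell). The median over the probe sets of a gene turned LIP9 to 0.96 and Hox16 to 0.17. For the minimum difference the alternative's own construction sets the count; otherwise the cause was not tested.

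With the replicate number as a block 17131 probe sets changed, 6904 rose and 10227 fell, and 9320 genes changed, 2574 rose and 6746 fell; none of the 182 named genes that passed lost its call. Leaving out each array in turn gave 16682 to 17757 changed probe sets, 6594 to 7429 rises and 10088 to 10330 falls, and 9248 to 9405 changed genes, 2563 to 2680 rises and 6674 to 6808 falls. A lone array of a stage is then assumed to vary like the other stages, and leaving out a BCP array equals the fit to the 4 UNM and TCP arrays. All other counts over the whole table stayed within 1.5 times the reported ones. Counts of single gene lists moved more, as with the hybridization controls for falls of homeobox genes (16 to 44), expansins (9 to 22) and transporters for phosphate, nitrogen and metals (14 to 42). Without 1 array, photosynthesis genes went from 2 rises and 4 falls to as few as 0 and 2, and the 1 rise in DNA replication was lost except without the TCP array of replicate 1. Low signal leaves 122 of the 182 changes a lower bound and 6 none. With 2 arrays per stage no array could be singled out as an outlier.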

Other observations

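Other families held steep opposite changes, named here after their values were seen. All 3 measured fructose-bisphosphate aldolases of the FBA family changed, FBA2 by 8.54 and the others by as much as -3.21. Among 14 alpha-expansins (EXPA) 2 rose and 5 fell, from 8.70 for EXPA32 to -3.20 for EXPA7. Among 27 beta-glucosidases (BGLU) 3 rose and 5 fell, from 7.40 for BGLU38 to -4.47 for BGLU22.

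Members outside the naming rule also moved far. The calcium kinase CPK29 differed by 7.55 and the calmodulin-like CML32 by 7.34, the trehalose-6-phosphate phosphatase TPP10 by 5.47 and the formin FH11 by 4.99, and all 4 rose. The jasmonate receptor genes COI2 and COI1 rose by 4.22 and 3.51, while COI1B fell by 1.53. The sucrose synthases RSUS1 and RSUS2 differed by -4.44 and -4.43. These genes were chosen after their values were seen.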
